A study of Mus musculus with 12 samples.

Results

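The 10 genes described here encode interferon-inducible GTPases of the mouse: the guanylate-binding proteins Gbp2, Gbp3, Gbp4, Gbp5 and Gbp7, and the immunity-related GTPases Irgm1, Irgm2, Igtp, Iigp1 and Tgtp1. They were chosen by name as members of these protein families, out of 23579 named genes on the arrays, and their probes were found through the transcript accession of each probe. Gene expression was measured on single-colour microarrays in microglia, the resident macrophages of the brain, which were enriched magnetically for the fractalkine receptor CX3CR1. All mice were male and 8 weeks old and belonged to 6 groups of 2 arrays. Wild type mice, mice with ZEB1 overexpression and mice with ZEB1 knock-down were each sampled without or with transient middle cerebral artery occlusion (tMCAO), a stroke model in which a brain artery is blocked and then reopened. ZEB1 is a zinc-finger transcription factor, and the labels give neither the promoter of the transgene nor the cells in which it was altered. The mice without occlusion are called controls in the labels, with no word on sham surgery, and the sources used here do not give the time between occlusion and cell isolation. Replicates are separate samples in the labels, but no label ties them to different animals, and the p-values therefore reflect the spread among these samples, part of which may be technical.

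Guanylate-binding proteins are large GTPases that assemble on the membranes around intracellular microbes and on bacteria themselves, and several of them promote inflammasome activation. Immunity-related GTPases act on the same vacuoles: effectors such as Iigp1 and Tgtp1 load onto the vacuole membrane, while Irgm1, Irgm2 and Igtp sit on the cell's own membranes and hold the effectors inactive there. Interferon-gamma is the classical inducer of both families in macrophages and microglia.

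A slide of 4 arrays held wild type and overexpression after tMCAO, and a slide of 8 arrays with a different probe design held the other 4 groups, so tests were made within a slide only. Of the 10 genes, 10 had a probe on the 4-array slide and 9 on the 8-array slide, where Tgtp1 had none, and each of these 12 and 11 probes passed the filter on dim probes and was well above background. The scanner software marked 7.49% to 21.7% of spots on the 4-array slide and 1.03% to 23.7% on the 8-array slide as non-uniform or outlying, and these spots were left out of the main test. Zeb1 itself did not clearly follow the labels. Before tMCAO both overexpression arrays lay above both wild type arrays on the brighter probe of the 8-array slide, but not on the other. Knock-down overlapped with wild type on both probes. In knock-down after tMCAO the brighter probe read -0.66 and -0.67 and the other -0.98 and -0.81. None of the differences of Zeb1 passed the test with all spots kept. On the 8-array slide its brighter probe read -0.57 and -0.59 in wild type, -0.28 and -0.36 in overexpression and -0.11 and -0.79 in knock-down before tMCAO, and on the 4-array slide wild type stood at 0.12 and 0.41 beside overexpression at -0.08 and 0.56 (log2 difference -0.02, with a 95% interval from -0.72 to 0.68). The sources used here do not say whether these probes cover the sequence that was introduced or targeted, so the groups are called "labelled overexpression" and "labelled knock-down" throughout. The defining markers of microglia were present: 10 of 10 were well above background on every array. So were all 8 markers each of neurons, astrocytes and oligodendrocytes, so detection does not show purity. On the 8-array slide before tMCAO, the summed linear level ran from 22.99 to 30.65 for microglial markers. It ran from 56.5 to 60.19 for neurons, 48.91 to 61.76 for astrocytes and 32.83 to 40.65 for oligodendrocytes. On the 4-array slide the microglial sum was the highest, at 100.5 to 114.1. Sums of different genes give no shares of cells.

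The stretches before the starts of 8 of these genes carry letters that interferon-activated factors are known to recognise. They are shown because all 8 genes that could be searched share the core of the interferon-stimulated response element. RefSeq windows (build GRCm38.p6) were found for 8 genes, all but Gbp4 and Iigp1. The 250 bases before each start were searched on both strands for the core of the interferon-stimulated response element (GAAANNGAAA, or TTTCNNTTTC on the other strand), for the gamma-activated element TTCNNNGAA, which reads the same on both strands, and for CACCTG, an E-box that ZEB1 is known to bind and that reads CAGGTG on the other strand. Capitals mark the interferon-stimulated core and the gamma-activated letters, and each line is written 5′ to 3′ on the strand of the gene. Gamma-activated letters before Gbp5 and Gbp7 lie outside the stretches shown.
Gbp2, chr3:142620580-142620662, + strand: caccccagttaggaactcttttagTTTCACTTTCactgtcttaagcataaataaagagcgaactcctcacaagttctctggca
Gbp3, chr3:142559975-142560043, + strand: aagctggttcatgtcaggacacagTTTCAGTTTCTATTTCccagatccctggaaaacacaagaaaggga
Gbp5, chr3:142496745-142496828, + strand: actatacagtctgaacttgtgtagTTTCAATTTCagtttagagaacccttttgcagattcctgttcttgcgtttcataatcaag
Gbp7, chr3:142530259-142530335, + strand: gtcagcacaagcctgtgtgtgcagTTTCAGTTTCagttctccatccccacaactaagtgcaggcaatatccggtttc
Irgm1, chr11:48871421-48871474, - strand: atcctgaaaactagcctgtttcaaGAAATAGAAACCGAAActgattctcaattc
Irgm2, chr11:58214889-58214972, + strand: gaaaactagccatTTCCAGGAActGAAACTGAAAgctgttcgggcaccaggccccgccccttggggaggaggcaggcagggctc
Igtp, chr11:58199498-58199555, + strand: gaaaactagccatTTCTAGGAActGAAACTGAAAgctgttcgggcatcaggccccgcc
Tgtp1, chr11:48992264-48992347, - strand: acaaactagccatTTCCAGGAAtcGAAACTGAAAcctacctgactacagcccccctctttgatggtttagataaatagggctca

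The interferon-stimulated core was found before all 8 of these genes, in 8 of their 9 windows (Gbp3 has 2 annotated starts), and in 978 of all 32851 windows (2.98%). Its first base lay 30 to 77 bases before the start, except in Gbp5, where it lay 165 bases before. In Gbp3 and Irgm1 a second copy overlapped the first by 4 bases. The guanylate-binding genes, which lie on chromosome 3, carried the core on the strand opposite to the gene, and the immunity-related GTPases of chromosome 11 carried it on the gene's own strand. The gamma-activated letters were found before 5 of the 8 genes, against 7.02% of all windows. In Irgm2, Igtp and Tgtp1 they ended 2 bases before the interferon-stimulated core. That joint arrangement, searched for after it was seen in these genes, occurred in 5 windows of the 32851, and the other 2 belonged to the relatives Tgtp2 and Gm12185. The ZEB1-type E-box was found before 0 of the 8 genes and in 17.2% of all windows. A match of letters is a description of the sequence and was not tested as a binding site.

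**Figure D1:**
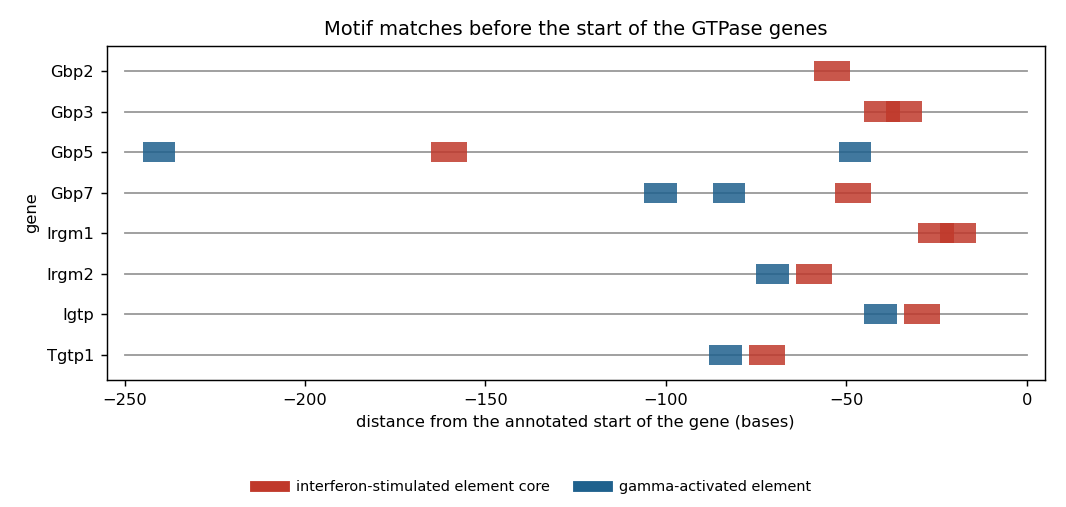
Positions of the interferon-stimulated core (red) and the gamma-activated letters (blue) in the 250 bases before the annotated start of 8 GTPase genes, with 1 line per gene and the distance from the start in bases on the horizontal axis. The red boxes lie within 77 bases of the start in every gene but Gbp5, and darker red marks overlapping copies in Gbp3 and Irgm1.

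After tMCAO, the guanylate-binding and immunity-related GTPase genes were higher in the arrays labelled ZEB1 overexpression than in wild type. With marked spots left out, 5 of the 9 genes that could be tested rose, namely Gbp2, Gbp4, Gbp5, Gbp7 and Iigp1, and 0 fell, while 1.57% of all 22488 genes tested were called higher. With all spots kept, 8 of 10 rose, namely the 5 guanylate-binding genes, Irgm1, Irgm2 and Igtp, against a background of 1.95%. In all 10 genes both labelled overexpression arrays lay above both wild type arrays, as 21.6% of all genes did. The median log2 fold change of the 9 tested members was 1.62, beside -0.10 over all genes tested. A call is an adjusted p under 0.05 in limma, adjusted by the Benjamini-Hochberg method over all genes of the slide, errors of fold changes are standard errors (SE), and levels are log2 signals from which the log2 signal at the array's 75th percentile was subtracted.

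Gbp2, which gathers on vacuoles of intracellular pathogens, stood at -2.18 and -1.60 in the wild type arrays and at 0.87 and 1.15 in the labelled overexpression arrays. The spot at 0.87 was marked, so the main fold change of 3.04 ± 0.37 on the log2 scale (8.23-fold, adjusted p = 0.0223) rests on 1 labelled overexpression array. With both arrays the difference was 2.90 ± 0.28 (adjusted p = 0.00766). It was the largest difference among the guanylate-binding genes under both treatments of marked spots.

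Gbp7, a guanylate-binding protein linked to assembly of the phagocyte oxidase on the phagosome, stood at -1.10 and -1.64 in wild type, against 0.67 and 0.75 in labelled overexpression. Its difference was 2.12 ± 0.36 (adjusted p = 0.0498) without the marked spot at 0.67 and 2.08 ± 0.26 (adjusted p = 0.0139) with it. Both readings lay above both wild type values. Gbp4 stood at -1.38 and -0.61 in wild type, against 0.68 and 0.70 in labelled overexpression. No spot of it was marked, and it rose by 1.68 ± 0.31 (adjusted p = 0.0484). Its adjusted p lies close to the threshold.

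Gbp5, which promotes assembly of the NLRP3 inflammasome, stood at -2.27 in both wild type arrays and at -0.91 and -0.38 in labelled overexpression. Its rise of 1.62 ± 0.27 (adjusted p = 0.0368) rests on unmarked spots, and the groups were separated by more than the spread within either of them. Gbp3, a further member of the chromosome 3 cluster, stood at -0.71 and -0.23 in wild type, against 1.04 and 0.96 in labelled overexpression. The spots at -0.71 and 1.04 were marked. With 1 array left in each group, where the SE is the spread limma takes from all genes of the slide and holds none of the gene itself, the difference was 1.18 ± 0.39 (adjusted p = 0.186), which did not pass, and with all spots it was 1.47 ± 0.26 (adjusted p = 0.0366), which did.

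Irgm1, a regulatory GTPase also involved in autophagy of damaged mitochondria, had 2 probes on this slide. The brighter stood at 0.35 and 0.37 in wild type, against 2.28 and 2.08 in labelled overexpression, and all 4 spots were marked. The other stood at -1.54 and -1.99 and at 0.22 and 0.66, with 3 spots marked. Once marked spots were dropped, Irgm1 therefore had no value. With them kept, the brighter probe gave 1.82 ± 0.23 (adjusted p = 0.0135), and the other gave 2.21 ± 0.28 in a fit over all 39334 probes (adjusted p = 0.0144). Both probes went the same way.

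Irgm2 and Igtp, the other regulatory GTPases, are neighbours on chromosome 11. Irgm2 stood at 1.65 in both wild type arrays and at 2.79 and 2.86 in labelled overexpression, all unmarked, a difference of 1.18 ± 0.23 (adjusted p = 0.0558). With all spots of the slide kept, the same values gave an adjusted p of 0.0441, so its call turns on how the other genes are treated. The Igtp probe was printed 10 times on each array. Its spots averaged 0.64 (SD 0.19 over spots) and 0.9998 (SD 0.16) in wild type and 2.13 (SD 0.25) and 2.21 (SD 0.12) in labelled overexpression, and the lowest spot of the latter, at 1.68, lay above the highest of the former, at 1.25. These spots are repeats within an array and not replicates. The Igtp difference was 1.23 ± 0.28 (adjusted p = 0.0753) with marked spots left out and 1.35 ± 0.24 (adjusted p = 0.0384) with them kept.

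Iigp1, an effector GTPase that loads onto parasite vacuoles, had 2 probes that rose by different amounts. The dimmer probe (A_55_P1990633) stood at -4.86 and -4.20 in wild type, against -1.32 and -1.08 in labelled overexpression, a difference of 3.33 ± 0.30 (10.1-fold, adjusted p = 0.0104) from unmarked spots. The brighter probe (A_55_P2410304) stood at 0.27 and 0.28 and at 1.14 and 1.12, with all 4 spots marked, a difference of 0.85 ± 0.22 (adjusted p = 0.0896). Both probes were higher in both labelled overexpression arrays, but the size of the Iigp1 difference is not settled by these arrays. Tgtp1, an effector that also loads onto vacuoles, stood at -3.76 and -3.26 in wild type, against -2.54 and -2.46 in labelled overexpression, a difference of 1.01 ± 0.27 (adjusted p = 0.105), which did not pass. Tgtp1 has a near-identical copy, Tgtp2, and signal cannot be assigned with certainty to either. The brighter of the 2 probes named for Tgtp2 stood at 1.51 and 1.58 in wild type, against 3.35 and 3.17 in labelled overexpression, with the spots at 1.51 and 3.35 marked, a difference of 1.58 ± 0.39 (adjusted p = 0.117) without them and 1.71 ± 0.23 (adjusted p = 0.0158) with them.

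**Figure D2:**
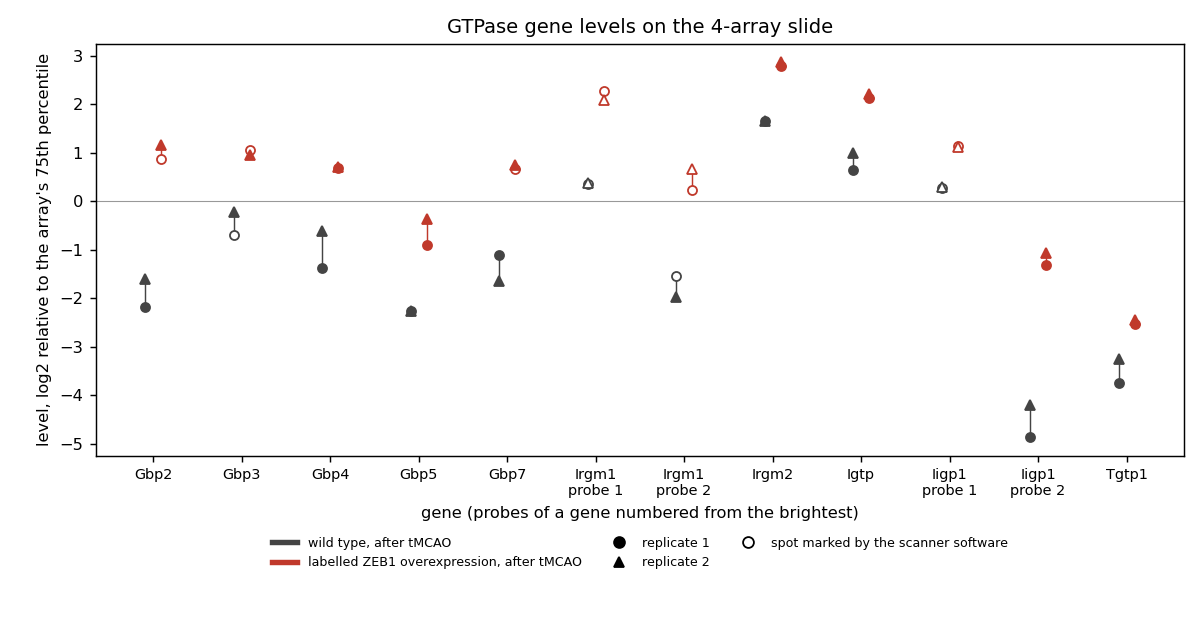
Level of each GTPase gene probe on the 4-array slide, in log2 units above the 75th percentile of the array, with wild type in grey and labelled ZEB1 overexpression in red, circles for replicate 1, triangles for replicate 2, open symbols for marked spots and a line joining the replicates. For every probe both red symbols lie above both grey ones, from Irgm2 at the top (2.79 and 2.86 against 1.65) to the dimmer Iigp1 probe (-1.32 and -1.08 against -4.86 and -4.20).

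The genes around this family on the interferon pathway were taken from fixed lists. Beside their counts, 1.57% of all genes tested were called higher, and 1.95% with all spots kept. Whether a list differed from that share was not tested. Of the relatives of both families, 4 of 13 tested rose and 0 fell, with a median of 1.58, and 7 of 14 rose with all spots kept. The 4 were Gbp6, higher by 1.85 ± 0.27 (adjusted p = 0.026), Gbp10 by 1.73 ± 0.24 (adjusted p = 0.0223), and the immunity-related GTPase genes F830016B08Rik by 2.03 ± 0.25 (adjusted p = 0.0187) and Gm4951 by 2.10 ± 0.34 (adjusted p = 0.0435, 1 labelled overexpression array). Gbp8 was not well above background in either wild type array and was at least 3.48-fold higher (adjusted p = 0.0643). Of the signalling genes, 1 of 11 tested rose with a median of 0.63: Socs1, the feedback inhibitor of interferon-gamma signalling, by 2.74 ± 0.34 (adjusted p = 0.0234, 1 labelled overexpression array). The second largest value was that of Ifng, the gene of interferon-gamma, at 1.64 ± 0.64 (adjusted p = 0.205). Irf1, the gene of an interferon-induced transcription factor, was at 1.26 ± 0.25 (adjusted p = 0.0546). It passed with all spots kept, where 4 of 20 signalling genes rose.

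Among other known targets of interferon-gamma, 6 of 12 tested rose with a median of 1.43, and 6 of 15 with a median of 0.77 when all spots were kept. The largest value was that of the chemokine gene Cxcl10, at 3.45 ± 0.39 (adjusted p = 0.029) from 1 array in each group, so that this call holds no spread of Cxcl10 itself. With all 4 arrays it was 2.56 ± 0.44 (adjusted p = 0.0349). Cd274, the gene of the checkpoint ligand PD-L1, rose by 2.44 ± 0.33 (adjusted p = 0.029, 1 labelled overexpression array). The others were Batf2 (2.19), Nlrc5, a regulator of MHC class I genes (2.04), Nos2 (1.96) and the peptide transporter gene Tap1 (1.72). Serping1 went the other way at -1.48 ± 0.31 (adjusted p = 0.0771). None of the 6 tested genes of the ubiquitin-like conjugation system that places these GTPases on vacuoles passed, and the largest values were those of Atg12 at 0.50 ± 0.39 (adjusted p = 0.521) and Map1lc3a at 0.47 ± 0.39 (adjusted p = 0.546), each from 1 array in each group. None of the 6 tested inflammasome partners passed, with Casp4 at 1.41 ± 0.39 (adjusted p = 0.122, 1 wild type array) and Casp1 at 0.83 ± 0.39 (adjusted p = 0.306, 1 array in each group) at the top. With all spots kept, 1 of 9 inflammasome partners passed: Gm12250, the effector GTPase also known as Irgb10, rose by 2.79 ± 0.24 (adjusted p = 0.00586), and its spots in both labelled overexpression arrays were marked.

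Of the markers of other cells, 1 passed the test after tMCAO, the neutrophil marker Elane, which was higher in labelled overexpression by 2.01 ± 0.37 (adjusted p = 0.0476). With all spots kept the vascular markers Cldn5, Des and Acta2 passed as well, lower by log2 differences of -1.52, -1.30 and -1.17. Of 12 markers of T, NK and B cells, 11 passed the filter and were well above background on all 4 arrays, and their summed level, on the linear scale with the signal at the 75th percentile set to 1, was 10.7 and 13.2 in wild type and 14.3 and 25.0 in labelled overexpression. Ifng, which such cells make, stood at -3.45 and -2.80 and at -2.53 and -0.43. The highest value of both lay in the same array, labelled overexpression replicate 2. Of the 10 GTPase genes, 3 were higher in replicate 1 than in replicate 2. The median difference of replicate 1 minus 2 was -0.07 (range -0.54 to 0.19). Of all genes, 57.2% were higher in replicate 1. The 9 monocyte and border macrophage markers that passed the filter summed to 38.0 and 32.3 in wild type and 41.9 and 41.3 in labelled overexpression, those of endothelial and mural cells to 19.1 and 20.9 and to 10.7 and 11.2, and the 10 microglial markers to 114 and 110.2 and to 111 and 100.5. The 9 neutrophil markers that passed the filter summed to 79.8 and 66.3 in wild type and 81.1 and 80.1 in labelled overexpression. The sums were lower in both labelled overexpression arrays for astrocytes (57.0 and 56.4, against 49.2 and 49.8), the oligodendrocyte lineage (24.5 and 23.8, against 20.6 and 20.3) and neurons (47.9 and 46.6, against 42.8 and 30.4). The part of these cells in the result was not tested, and in such bulk samples a change in the number of cells of a type cannot be told apart from a change of RNA per cell. Wild type arrays occupied 1 row of the slide and labelled overexpression arrays the other, so the row and the group cannot be told apart. On the 8-array slide, wild type before tMCAO and labelled knock-down after tMCAO lay in row 1. Labelled overexpression and labelled knock-down before tMCAO lay in row 2. Comparisons between groups of different rows on that slide have the same limit.

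The calls depended on the settings, while the direction was the same in each setting tried. Of the 5 genes called, 2 passed under quantile normalization and 0 without a filter on dim probes or with the probes of a gene averaged. Without wild type replicate 1, 0 members passed and the median was 1.30, without wild type replicate 2, 1 passed with a median of 1.74, without labelled overexpression replicate 1, 6 passed, and without labelled overexpression replicate 2, 3 of 6 passed with a median of 1.25. Every member that was tested had a positive log2 fold change in each of these.

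**Figure D3:**
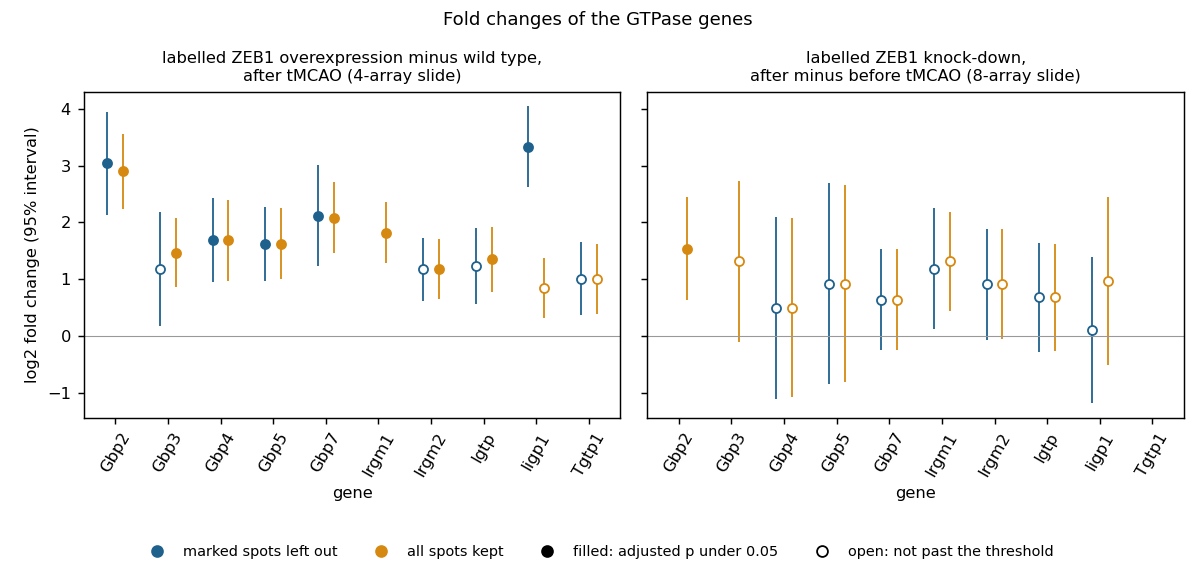
Log2 fold change of each GTPase gene with its 95% interval, for labelled ZEB1 overexpression against wild type after tMCAO (left) and for labelled ZEB1 knock-down after against before tMCAO (right), with marked spots left out in blue and all spots kept in orange, filled where adjusted p was under 0.05. On the left 5 blue and 8 orange points are filled and all lie above 0, and the blue and orange points of Iigp1 (3.33 and 0.85) come from different probes. On the right 1 point, Gbp2 with all spots kept (1.54), is filled, and Tgtp1 had no probe.

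Before tMCAO, no difference between the 3 genotypes passed for any GTPase gene. The number of members called was 0 of 8 for labelled overexpression against wild type, 0 of 9 for labelled knock-down against wild type and 0 of 8 for labelled overexpression against labelled knock-down, and the background was the same, with 0% of all genes called in each. At an unadjusted p under 0.05, 0 members passed in each of the 3 comparisons, while 11.6%, 8.76% and 14.8% of all genes did. These tests also take in the spread of labelled knock-down after tMCAO. There the replicates differed by a median of 1.29 in the members, beside a median absolute difference of 0.32 over all genes. The shares therefore do not show that the members were steadier than other genes before tMCAO. The medians over members were 0.05, 0.07 and 0.07. Both arrays of a group lay on the same side of both arrays of the other for 1 of 9 members (Gbp4, lower) in labelled overexpression against wild type, where 47.2% of all genes did so in either direction, for 2 (Iigp1 higher, Gbp2 lower) in labelled knock-down against wild type, where 43.9% did, and for 3 (Igtp and Irgm2 higher, Gbp4 lower) in labelled overexpression against labelled knock-down, where 51.2% did. These member shares lay below the background in each comparison, a difference that was not tested.

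The spread between replicates sets what could be seen. The tests pool it over all groups of the slide, so unmarked values of labelled knock-down after tMCAO enter the SE and intervals given here. For Gbp4 the SD of the replicates was 1.58 in that group. Before tMCAO it was 0.20 in wild type, 0.23 in labelled overexpression and 0.06 in labelled knock-down. Gbp2 stood at -1.58 and -1.35 in wild type, at -2.02 (marked) and -1.35 in labelled overexpression and at -1.78 and -1.79 in labelled knock-down. Its 95% interval for labelled knock-down minus wild type ran from -0.75 to 0.11. Labelled overexpression overlapped with wild type, and labelled knock-down lay below it by 0.32 ± 0.16 (adjusted p = 0.709).

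Gbp4 stood at -3.87 and -4.15 in wild type, at -4.74 and -4.42 in labelled overexpression and at -3.99 and -3.90 in labelled knock-down. The labelled overexpression arrays were the lowest, at -0.57 ± 0.66 against wild type (95% interval -2.17 to 1.04, adjusted p = 0.768). Gbp5 stood at -4.18 and -3.97, at -4.27 and -3.25 and at -4.20 and -3.71 in the same order. Its groups overlapped, and the interval for labelled overexpression minus wild type, from -1.44 to 2.09, leaves room for changes of the size seen after tMCAO. That interval also holds the spread of labelled knock-down after tMCAO, where the SD of Gbp5 was 1.58. In the groups before tMCAO it was 0.15, 0.72 and 0.34 in the same order. Gbp3 stood at -0.89 and -1.55, at -1.83 (marked) and -1.15 and at -0.89 and -1.35, and its groups overlapped too. Gbp7 stood at -2.17 and -1.93, at -2.51 and -2.10 and at -1.55 and -2.23, again with overlap in each pair of groups.

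The regulatory GTPases lay close together across the genotypes. Igtp stood at -0.64 and -0.95 in wild type, at -0.77 and -0.73 in labelled overexpression and at -0.83 and -1.002 in labelled knock-down, a difference of 0.04 ± 0.39 for labelled overexpression and -0.12 ± 0.39 for labelled knock-down. Irgm2 stood at -0.35 and -0.67, at -0.56 and -0.34 and at -0.67 and -0.57 in the same order, with differences of 0.06 ± 0.40 and -0.11 ± 0.40. Wild type spanned the labelled overexpression values of Igtp, and of Irgm2 all but its highest. The brightest of 3 Irgm1 probes stood at -0.21 and -0.66, at -0.30 (marked) and -0.38 and at -0.26 and -0.96, and its groups overlapped. Iigp1 was more variable, at -2.54 and -2.61 in wild type, at -3.30 and -2.32 in labelled overexpression and at -1.72 and -2.51 in labelled knock-down. Both labelled knock-down arrays lay above both wild type arrays, by 0.46 ± 0.41 (adjusted p = 0.869).

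None of the listed pathway genes passed before tMCAO. Among the relatives the 2 largest values were Gvin1 at -1.43 and Gm5431 at -1.24 for labelled overexpression against wild type, Gvin1 at -1.79 and Gm5431 at -0.89 against labelled knock-down, and 9930111J21Rik1 at -0.68 and F830016B08Rik at -0.44 for labelled knock-down against wild type. Gvin1 encodes a very large interferon-inducible GTPase. Among the signalling genes they included Ifnar1 at -0.39 for labelled overexpression against wild type, Tyk2 at 0.46 and Socs3 at 0.42 against labelled knock-down, and Tyk2 at -0.53 and Ifnar1 at -0.47 for labelled knock-down against wild type. Among the other interferon-gamma targets they were, in the same order, Cxcl10 at -1.16 and Tap1 at -0.45, Cxcl10 at -1.17 and Serping1 at 0.60, and Serping1 at -0.62 and Batf2 at -0.48. Among the conjugation genes they were Map1lc3a at -0.27 and Atg7 at 0.26, Atg12 at 0.25 and Atg7 at 0.23, and Gabarap at -0.32 and Map1lc3b at -0.14. Among the inflammasome partners they were Casp4 at -1.18 and Il1b at 0.41, Casp4 at -0.93 and Gsdmd at 0.62, and Nlrp3 at -0.53 and Gsdmd at -0.51. All are log2 differences with marked spots left out.

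**Figure D4:**
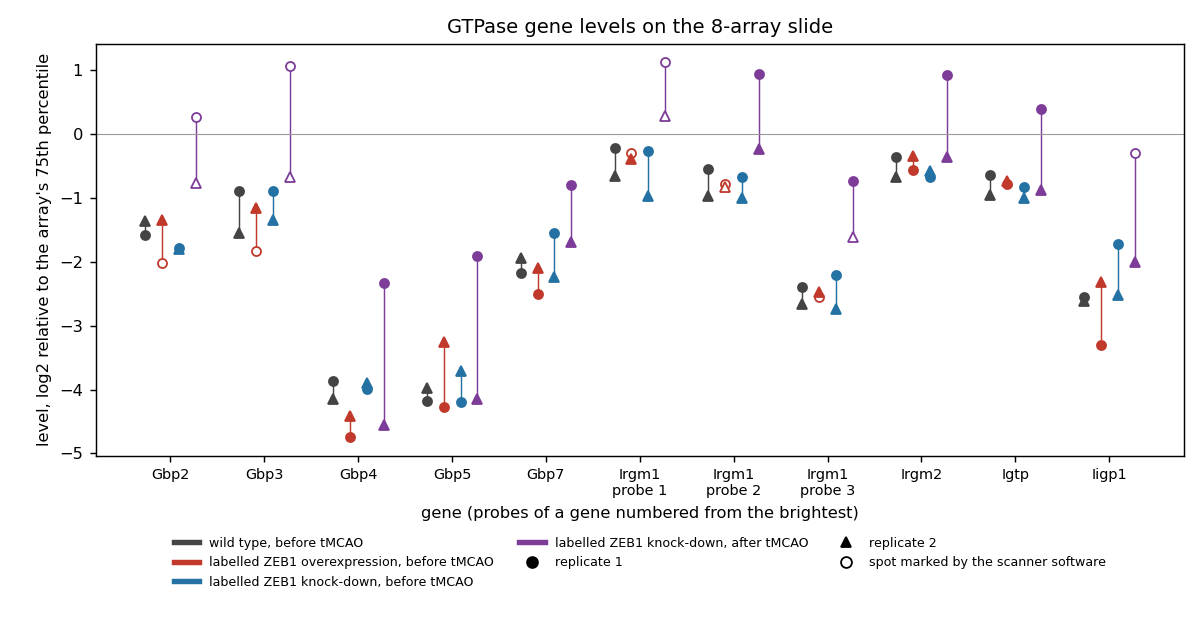
Level of each GTPase gene probe on the 8-array slide, in log2 units relative to the array's 75th percentile, for wild type (grey), labelled ZEB1 overexpression (red) and labelled ZEB1 knock-down (blue) before tMCAO and labelled ZEB1 knock-down after tMCAO (purple), with symbols as for the 4-array slide. The 3 groups before tMCAO lie together for most probes, and for all probes the purple circle (replicate 1) lies above the purple triangle (replicate 2), by 0.84 to 2.24 over the 9 genes.

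In the arrays labelled ZEB1 knock-down, the comparison of cells after with cells before tMCAO gave higher values for these genes in replicate 1 and a mixed picture in replicate 2. With marked spots left out, 0 of the 7 genes that could be tested passed, although 11.1% of all 24647 genes were called higher. Of all 4480 calls 61.3% were higher, a share that was 44.7% under quantile normalization and 78.7% with the normexp background correction. With all spots kept, 1 of 9 passed, Gbp2, against a background of 10.1% called higher. The median log2 fold change was 0.68 over the 7 genes and 0.93 over the 9, beside 0.05 and 0.04 over all genes. Both arrays after tMCAO lay above both arrays before it in 4 of 9 members, Gbp2, Gbp3, Irgm1 and Irgm2, and in 33.6% of all genes. These counts of members are near the background and show nothing particular to the family.

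Gbp2 stood at 0.28 and -0.76 after tMCAO, both marked, and at -1.78 and -1.79 before it, a difference of 1.54 ± 0.38 (adjusted p = 0.0409) with all spots kept. Gbp3 stood at 1.07 and -0.67, both marked, and at -0.89 and -1.35, a difference of 1.32 ± 0.59 (adjusted p = 0.164). Both genes were higher after tMCAO in both arrays, and neither has a value with marked spots left out. Gbp4 stood at -2.32 and -4.56 after and at -3.99 and -3.90 before, and Gbp5 at -1.91 and -4.15 after and at -4.20 and -3.71 before. In both of these, replicate 1 was the highest and replicate 2 lay within or below the range before tMCAO, and the differences were 0.50 ± 0.66 (adjusted p = 0.612) and 0.93 ± 0.73 (adjusted p = 0.392). Gbp7 stood at -0.80 and -1.69 after and at -1.55 and -2.23 before, and its difference of 0.64 ± 0.37 (adjusted p = 0.25) did not pass.

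Of the regulatory GTPases, Irgm1 had 3 probes, of which the dimmest passed in the fit over all probes. Its brightest probe stood at 1.13 and 0.28 after, both marked, and at -0.26 and -0.96 before, a difference of 1.31 ± 0.36 (adjusted p = 0.0534) with all spots kept. A second probe, unmarked, stood at 0.94 and -0.23 after and at -0.67 and -0.998 before, a difference of 1.19 ± 0.42 (adjusted p = 0.107). The dimmest, which does not stand for the gene in the count of members, read -0.72 and -1.62 (marked) after and -2.21 and -2.74 before. Its difference was 1.75 ± 0.30 without the marked spot (adjusted p = 0.0312, 1 array after tMCAO) and 1.30 ± 0.33 with it (adjusted p = 0.0426). All Irgm1 probes were higher after tMCAO in both arrays. Irgm2 stood at 0.94 and -0.35 after and at -0.67 and -0.57 before, a difference of 0.92 ± 0.40 (adjusted p = 0.154). Igtp stood at 0.40 and -0.87 after and at -0.83 and -1.002 before, and Iigp1 at -0.29 (marked) and -2.001 after and at -1.72 and -2.51 before. The Igtp and Iigp1 values of replicate 2 fell within the range before tMCAO. The Igtp difference was 0.68 ± 0.39 (adjusted p = 0.252). That of Iigp1 was 0.12 ± 0.50 without the marked spot of replicate 1 (1 array after tMCAO). With all spots kept, the Iigp1 difference was 0.97 ± 0.61 in the fit over all probes (adjusted p = 0.299).

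The 2 arrays labelled knock-down after tMCAO differed from each other in these genes. Replicate 1 was above replicate 2 in 9 of 9 members, by a median of 1.29 on the log2 scale, while the median absolute difference between these arrays over all genes was 0.32 and 48.3% of all genes were higher in replicate 1. In the other 5 groups the median member difference between replicates ran from -0.40 to 0.28. Without replicate 1, 0 of 7 members passed, the median was 0.12, and Gbp4 and Gbp5 were at -0.62 and -0.19. Without replicate 2, 5 of 6 members passed and the median was 1.59. In the authors' deposited value table the columns of these replicates match each other's scanner file (correlation with their own file 0.975), so which sample is replicate 1 is uncertain, and the means of the group do not depend on it. Across replicates 1 and 2 the summed linear level of monocyte and border macrophage markers was 23.2 and 23.4, that of microglial markers 42.9 and 36.0, and that of the 8 lymphocyte markers that passed the filter 0.76 and 0.28. Before tMCAO in the labelled knock-down arrays these sums were 8.83 and 9.11, 26.7 and 27.3, and 0.65 and 0.74. Of these 8 lymphocyte markers, 7 were well above background in replicate 1 and 2 in replicate 2, and 8 and 6 before tMCAO. The T cell marker Cd3e was not well above background in either array after tMCAO, nor was Ifng, while Cd3d and Cd4 were in both. Between after and before, the test passed for 3 of 6 microglial markers tested, all higher (Olfml3, Cx3cr1 and Aif1, by 1.17 to 1.94). It passed for 6 of 9 monocyte and border macrophage markers, all higher (F10, Chil3, Ccr2, Pf4, Lyve1 and Cd163, by 1.03 to 3.91). Also higher were 2 of 6 neutrophil markers, Cxcr2 (2.77) and Mmp8 (2.35), and 3 of 7 vascular markers, Pecam1 (1.48), Cldn5 (0.87) and Pdgfrb (0.84). So were 1 of 6 astrocyte markers, Gfap (2.10), and 1 of 3 oligodendrocyte markers, Mog (0.99). Lower were 2 of 8 lymphocyte markers, Cd4 (-1.35) and Cd3e, and 1 of 4 neuronal markers, Slc17a7 (-1.23). Of all 24647 genes tested, 11.1% were called higher and 1735 genes were called lower in this comparison. The part of these cells in the result was not tested.

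In this comparison genes of the signalling, inflammasome and target lists passed the test, and 11.1% of all 24647 genes tested were called higher. Whether a list differed from that share was not tested. Of the signalling genes, 5 of 15 tested rose with a median of 0.82: Socs3, an inhibitor of cytokine signalling, by 2.67 ± 0.29 (adjusted p = 0.0138), Irf8, a lineage factor of macrophages, by 1.76 ± 0.29 (adjusted p = 0.0145), Irf9 by 1.30, Ptpn2 by 1.08 and the receptor gene Ifngr1 by 0.68. Of the inflammasome partners, 4 of 8 tested rose with a median of 1.17: Casp4 by 2.74 ± 0.43 (adjusted p = 0.0133), the pore-forming Gsdmd by 2.15 ± 0.18 (adjusted p = 0.00364), the DNA sensor Aim2 by 2.08 ± 0.39 (adjusted p = 0.0278) and Casp1 by 1.02 ± 0.21 (adjusted p = 0.0269). Of the other interferon-gamma targets, 3 of 10 rose (Serping1, Batf2 and Psmb9, by 1.76, 1.69 and 1.61) and 1 fell, Ido1, by 2.29 ± 0.15 (adjusted p = 0.00388), and Nlrc5 was at 2.09 ± 0.58 (adjusted p = 0.0536).

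Of the relatives, 1 of 10 rose and 1 fell with a median of 0.15: Tgtp2 at 1.15 ± 0.22 (adjusted p = 0.0403) and Gbp6 at -1.56 ± 0.20 (adjusted p = 0.0178), each on 1 array after tMCAO. With all spots kept they were at 0.25 ± 0.58 (adjusted p = 0.795) and -0.09 ± 0.84 (adjusted p = 0.952), so neither call held. The share of relatives called higher was near the 11.1% of all genes. The Tgtp2 probe stood at 1.62 and -0.18 after and at 0.52 and 0.43 before, with the spot at -0.18 marked. None of the 3 tested conjugation genes passed, with Atg7 at 0.35 ± 0.16 (adjusted p = 0.174) and Gabarapl1 at -0.10 ± 0.18 (adjusted p = 0.731).

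Across the 8 arrays of that slide the levels of the members were correlated, with higher values when the arrays after tMCAO were included. The Pearson correlations of the 36 pairs of members ran from 0.63 to 0.97 with a median of 0.86 over all 8 arrays, and from -0.41 to 0.91 with a median of 0.26 over the 6 arrays before tMCAO. The points share a slide and the scaling of each array. The mean standardised level of the members was 2.20 in labelled knock-down replicate 1 after tMCAO, 0.05 in its replicate 2 and between -0.79 and -0.14 in the 6 arrays before. A gene that is high in that replicate 1 alone would therefore also correlate strongly with this mean. The genes whose levels over the 8 arrays were most like that mean were Parp14, an ADP-ribosyltransferase (r = 0.9901), Oas1a, an oligoadenylate synthetase (r = 0.987), Pik3ap1, a signalling adaptor (r = 0.986), the kinase gene Tec (r = 0.985) and the relative Gbp10 (r = 0.982).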

How the data were processed

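RNA from 12 samples was labelled with 1 dye and hybridised to Agilent arrays. The deposited scanner files give the intensity of each spot after background subtraction and further marks for outlying or dim spots. They come from Agilent Feature Extraction 11.5.1.1 per the file headers, while the submitters' processing notes name 9.1. In the deposited value tables the values are log2 signals (slope 0.9999 to 1 against the matching scanner file), offset by 0.135 to 0.533 from the scaling used here, with column medians from -3.75 to -3.04.

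Levels are log2 of the processed intensity minus that of the array's 75th percentile over spots that were not controls, which was 1078 to 1515 (4-array slide) and 2566 to 3702 (8-array slide). Marked spots were left out and spots of a probe averaged. The filter on dim probes required every array of some group to be well above background, and the brightest kept probe stood for a gene. The number of arrays limits the precision. Names came from probe accessions in the RefSeq table of GRCm38.p6 (48.1% and 59.7% of probes matched), while the array design cites mm9 per the file headers. For the tests, limma 3.58.1 (R 4.3.3) fitted each slide with all its groups together, and the script was tested on simulated data. The alternatives changed the scaling, background, filter, marked spots, choice of probe, samples fitted and replicate block, or left out an array.

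The members and lists were chosen with earlier results of these data known. All members were named, and from each pathway list the genes called and the 2 with the largest absolute log2 fold change per comparison. Of the signalling list, 1 gene is not reported here by name. The 5 genes most like the members had the highest Pearson correlation with their mean standardised level over the 8-array slide, with all spots kept.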

Additional observations from a re-analysis of the deposited data

Results flagged for a closer look

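The estimates for Gbp4 had opposite signs before and after tMCAO in the comparison of labelled ZEB1 overexpression with wild type. After tMCAO both labelled overexpression arrays were higher, with a log2 difference of 1.684, and before it both were lower, with a log2 difference of -0.5659. The former passed the test and the latter did not (limma adjusted p = 0.768). The difference between these differences was not tested, because the arrays after and before tMCAO are of different designs. The opposite signs are not particular to Gbp4. Gbp7 was at 2.12 after and -0.25 before, and Iigp1 at 3.33 after and -0.23 before, on different probes. In both of these the groups before tMCAO overlapped. Of the 8 members tested before tMCAO, 3 were negative and 5 positive.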

How the results depend on the processing

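For labelled overexpression against wild type after tMCAO, all members tested were higher in each alternative. The count of members called, 5, became 8 with marked spots kept, 2 with quantile normalization, 3 with the percentile over detected probes, 0 without the filter on dim probes, 0 with the mean of a gene's probes, and 0 to 6 with an array left out. The count of all genes called, 515, became 895, 341 and 777 with marked spots kept, quantile normalization and the authors' value table, 0 without the filter and with the mean of probes, and 40 to 1233 with an array left out. The median of members, 1.62, was 1.32 with the normexp correction, an alternative chosen after seeing the data, and 1.25 to 1.74 with an array left out.

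For the knock-down label after against before tMCAO, 0 members became 1 with marked spots kept and with the mean of probes, 2 with normexp and with the authors' table, and 0 to 5 with an array left out. All genes called, 4480, became 7452 with normexp, 2121 without the filter, 2339 with only these 2 groups fitted, and 827 to 3807 with an array left out. The median ran from 0.12 to 1.59 with an array left out, Gbp4 from -0.62 to 1.62, Gbp5 from -0.19 to 2.05 and Iigp1 from -0.28 to 0.51.

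Before tMCAO 0 members were called in each alternative. For labelled overexpression against wild type the median of members was -0.22 with marked spots kept and -0.20 with the authors' table, Gbp2 was -0.22 and -0.20, and Gbp3 was -0.27 and -0.26. All genes called were 6 with quantile normalization and 518 with the mean of probes. With an array left out they ran from 0 to 2, the median from -0.32 to 0.10, Gbp3 from -0.26 to 0.40, Irgm2 from -0.10 to 0.22, Igtp from -0.11 to 0.19, Iigp1 from -0.72 to 0.26 and Gbp5 from -0.19 to 0.83. For labelled knock-down against wild type 1 gene was called with quantile normalization. With an array left out the count ran from 0 to 3, the median from -0.21 to 0.048, Irgm1 from -0.28 to 0.13, Irgm2 from -0.27 to 0.048, Igtp from -0.27 to 0.028, Gbp3 from -0.23 to 0.43, Gbp4 from -0.0714 to 0.21, Gbp7 from -0.18 to 0.50 and Gbp5 from -0.12 to 0.36. For labelled overexpression against knock-down 6 genes were called with quantile normalization and 549 with the mean of probes, and Gbp3 was 0.13 with normexp. With an array left out the median ran from -0.46 to 0.0768, Gbp3 from -0.26 to 0.20 and Gbp5 from -0.31 to 0.71.

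The replicate block gave 3 members called after tMCAO for labelled overexpression, 1 for knock-down after against before tMCAO, and Gbp3 at 0.25 for labelled overexpression against knock-down. Replicate numbers did not pair the samples (correlations of deviations -0.19 to 0.26), so they are only a number. The normexp correction used the median signal. It moved the median log2 fold change over all genes from -0.10 to -0.27 for labelled overexpression and from 0.05 to 0.21 for knock-down after tMCAO, and quantile normalization moved the latter to -0.10. Where a gene's probes were averaged, different probes enter on arrays with marked spots. The cause of the other differences was not tested.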
